A study of Homo sapiens with 18 samples.

Results

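Long intergenic noncoding RNAs with LINC symbols were followed through polysome RNA and total RNA of HEK293T cells, a human embryonic kidney line. Each of 3 lines carried one of the YTHDF proteins joined to ADAR, an adenosine deaminase. The members were 140 of the 60675 human gene rows of the deposited count table. They were the lncRNA genes whose symbol is LINC followed by a number and whose mean CPM (counts scaled to a library total of 1000000) over all 18 libraries was at least 1. Of 2124 LINC genes, 1984 lay below that level and 560 of these had no read. The members were chosen by biotype, symbol and mean level, so their levels are a description. LINC02163, LINC01970 and LINC01962 lay just inside it at 1.012, 1.012 and 1.006 mean CPM, and LINC00242, LINC02595 and LINC02246 just outside at 0.973, 0.964 and 0.958. The 140 members carry 139 symbols, because LINC01605 has 2 gene rows, and all 140 passed the expression filter of the fit. Taken by fraction, 126 members reached a mean CPM of 1 in both, 10 in total RNA only and 4 in polysome RNA only, so for those outside the 126 a difference between the fractions was in part built into their choice. The 10 were LINC01011, LINC01126, LINC01588, LINC01715, LINC01783, LINC01816, LINC01962, LINC01970, LINC02076 and LINC02809.

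The 6 groups were polysome RNA of the YTHDF1-ADAR, the YTHDF2-ADAR and the YTHDF3-ADAR line and total RNA of the same 3 lines, with 3 libraries each. Every group, total RNA included, had received 1 µg/mL doxycycline for 24 h to induce the fusion and 100 µg/mL cycloheximide for 10 min to hold ribosomes on RNA. Polysome RNA came from pooled sucrose gradient fractions with more than 2 ribosomes, and each library was made from 150 ng of RNA after removal of ribosomal RNA. No group lacked a fusion construct, and whether a line is 1 clone, and whether replicates are separate cultures, is not stated, so p-values measure only the spread between these libraries, which may be technical.

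LINC symbols are given to long noncoding RNA genes that lie between protein-coding genes and are named by number. Like mRNAs, most are transcribed by RNA polymerase II, capped, spliced and polyadenylated. Some remain in the nucleus at their own locus, some reach the cytoplasm, and a few carry short reading frames that ribosomes translate into small peptides. RNA found in polysome fractions sediments with several ribosomes or with other large particles, and sedimentation alone does not separate these. The YTHDF proteins bind N6-methyladenosine in cytoplasmic RNA.

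Library totals were 42699303 to 67549159 counts. The YTHDF gene of the label was highest in its own line for YTHDF1 (318 to 445 normalised CPM, against 57.6 to 96.2 elsewhere) and YTHDF2 (260 to 312, against 113 to 180), while YTHDF3 overlapped (68.7 to 89.1, against 45.5 to 79.4). Markers of HEK293T cells were present, such as VIM at 211 to 412 CPM, and PTPRC, CD3E, ALB and COL1A2 stayed at or below 0.141 CPM, while GFAP lay at 1.27 to 5.4 CPM. Replicate 1 of YTHDF3-ADAR cells stood apart in both fractions. Over the members, its median absolute log2 distance was 0.583 to the other polysome libraries of its group and 0.413 to the other total RNA libraries. It was nearer to YTHDF2-ADAR polysome RNA (0.233) and to YTHDF1-ADAR total RNA (0.212), and 20 members in each fraction lay more than 1 log2 outside both other replicates. Polysome replicate 3 of the same line was nearer to total RNA of its line (0.324) than to the other polysome libraries of its group (0.492). The only other library not nearest its own group was YTHDF2-ADAR polysome replicate 1, at 0.172 from its own and 0.170 from YTHDF1-ADAR polysome RNA. ADARB1, an ADAR gene, reached 1080 to 1651 normalised CPM in all 6 YTHDF3-ADAR libraries, replicate 1 included, against 32.4 to 268 in the other lines. Counts of members called in YTHDF3-ADAR cells and on the mean of the 3 lines are therefore given with and without the YTHDF3-ADAR libraries named here. Counts between lines are also given without replicate 1. Counts called in all 3 lines, in some or in none, and counts within subsets or lists of genes, are given with all libraries only.

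The label intergenic held for most members. The annotated span of 102 of the 140 was clear of protein-coding genes and that of 38 overlapped one, such as LINC02381 with SMUG1 and LINC00649 with ATP5PO. Exons of 76 members shared bases with exons of another gene on either strand. The sources used here do not give the strand setting of the counting, so reads of such pairs may not be told apart, and counts restricted to the other 64 are given beside the results. In the name table, 10 members carry a newer symbol, among them LINC01715 as TAF12-DT, LINC00894 as EOLA2-DT and LINC01534 as ZNF567-DT, where DT marks a divergent transcript of the named gene.

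Per kilobase of exon, the highest members in total RNA were LINC02067 at 20.1 normalised CPM per kb, LINC01123 at 10.4 and LINC01106 at 9.23. The same members had 15.6, 9.69 and 8.18 normalised CPM per kb on polysomes. LINC00511 and LINC00461, with long exonic sequence, were at the low end with 0.0539 and 0.103 per kb in total RNA. Together the 140 members took 0.0768 to 0.127% of all counts of a library.

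The polysome comparison asks which RNAs a line carries in ribosome-bearing fractions. With TMM scaling, which sets the libraries to a common level over most genes, more LINC RNAs were called lower on polysomes than higher. In YTHDF1-ADAR cells 4 members were higher and 25 lower, or 2.86% and 17.9% of the members, where 9.26% and 11.9% of all 26804 genes tested were called in those directions and 21.2% in either (quasi-likelihood test in edgeR, p adjusted after Benjamini and Hochberg, threshold 0.05). YTHDF2-ADAR cells had 2 higher (1.43%) and 22 lower (15.7%), with 6.71% and 9.04% of all genes, 15.8% in either direction. In YTHDF3-ADAR cells 1 was higher (0.714%) and 28 lower (20%), with 8.01% and 12.1% of all genes, 20.1% in either direction. The other 111, 116 and 111 members were not called. The lower counts include members that reached 1 CPM in total RNA only, for which a lower polysome level was in part built into their choice. Of those 10, 6 were called lower in all 3 lines, and of the 126 that reached it in both fractions 12 were. Without normalization factors 40, 24 and 12 members were higher and 15, 15 and 20 lower in the 3 lines, which turned the balance in YTHDF1-ADAR and YTHDF2-ADAR cells. All genes moved too, with 40.6%, 33.9% and 25.3% then called higher and 5.70%, 5.09% and 6.22% lower.

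Calls in the YTHDF3-ADAR line changed with single replicates and with the libraries that entered the fit. Without replicate 1 of both fractions 9 members were higher and 33 lower there, with 16.6% and 13.8% of all genes called. Without polysome replicate 3 of that line 1 was higher and 39 lower, with 7.44% and 12.3% of all genes. When only the 6 libraries of that line were fitted, 0 were higher and 4 lower. The share of all genes called in that fit is not given, so a loss of calls particular to LINC RNAs cannot be told from a general one. Pairing same-numbered libraries within a line gave 9 higher and 36 lower members for YTHDF1-ADAR, 4 and 38 for YTHDF2-ADAR, and 1 and 47 for YTHDF3-ADAR, where 18.7% and 18%, 15.5% and 15.0%, and 13.6% and 20.1% of all genes were called. The small counts of higher members ranged from 1 to 3, from 1 to 2 and from 0 to 3 in the 3 lines when single libraries were left out. Among the 64 members that share no exon base with another gene, 0 were higher in each line and 12, 10 and 14 were lower.

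The median log2 change of the members was -0.10 with the YTHDF1 fusion, -0.15 with the YTHDF2 fusion and -0.23 with the YTHDF3 fusion. Over all genes tested the median was 0.03, 0.03 and -0.05, over 2273 other lncRNAs of the same mean CPM it was -0.02, -0.01 and -0.10, and over 13521 protein-coding genes 0.16, 0.15 and 0.07. The YTHDF3-ADAR value rested on single libraries: it was -0.15 without polysome replicate 1, -0.36 without polysome replicate 3 and -0.12 without replicate 1 of both fractions. Relative to the median of all genes it then lay at -0.09, -0.30 and -0.11. Without normalization factors the medians of all genes moved to 0.46, 0.40 and 0.25 and those of the LINC RNAs turned to 0.34, 0.22 and 0.09. Relative to the median of all genes the LINC RNAs then lay at -0.12, -0.18 and -0.17, against -0.13, -0.18 and -0.18 with the factors. The summed share of the members changed direction with its denominator in the YTHDF1-ADAR and YTHDF2-ADAR lines, and not in the YTHDF3-ADAR line. By all counts it was 0.110% ± 0.00451 on polysomes and 0.0869% ± 0.00887 in total RNA of YTHDF1-ADAR cells (SD, n = 3 each). That was a ratio of 1.27, while relative to protein-coding counts the ratio was 0.888. In the YTHDF2-ADAR and YTHDF3-ADAR lines the ratios were 1.15 and 0.964 by all counts and 0.839 and 0.779 relative to protein-coding counts. The values of single members use TMM scaling, which rests on most genes not changing.

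**Figure D1:**
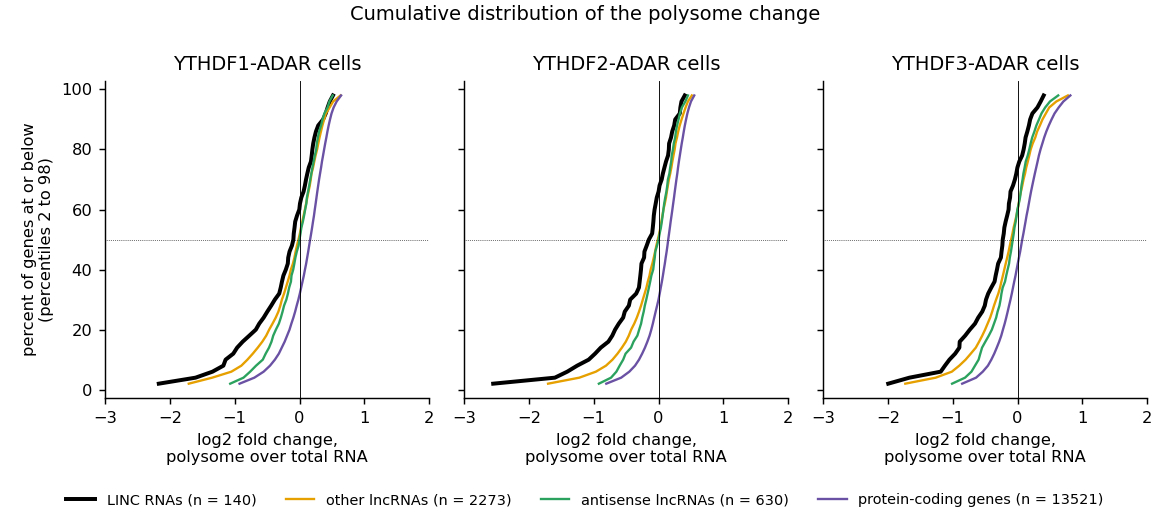
Cumulative share of genes (percent, percentiles 2 to 98) against the log2 fold change of polysome over total RNA in each line, for 140 LINC RNAs, 2273 other lncRNAs, 630 antisense lncRNAs and 13521 protein-coding genes, the last 3 with a mean CPM of at least 1. The LINC curve lies to the left, with medians of -0.10, -0.15 and -0.23, and its lower tail extends below the other curves.

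**Figure D2:**
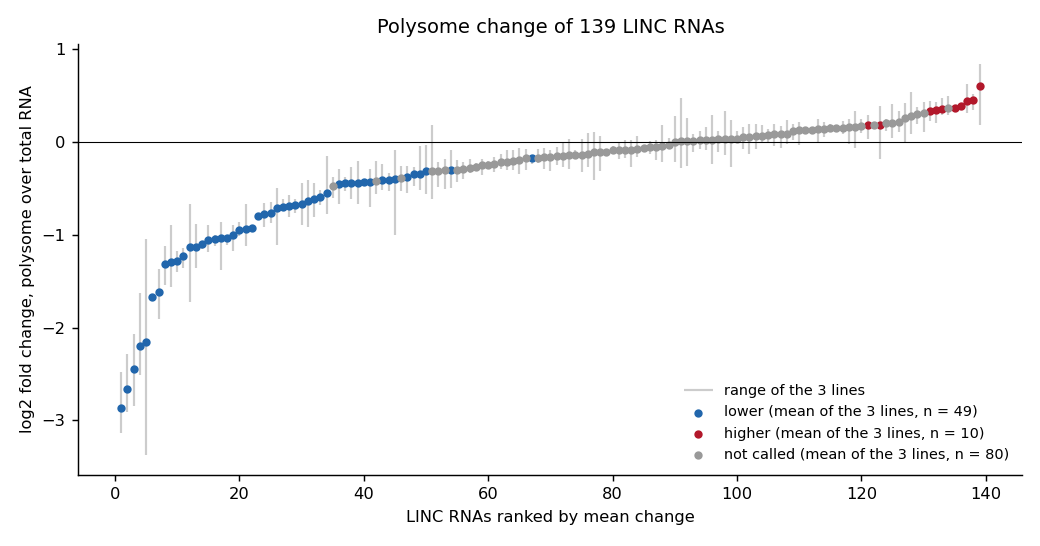
Mean log2 fold change of polysome over total RNA over the 3 lines for 139 LINC RNAs in rank order (LINC01687, at 0 counts in 1 group, is left out), with grey bars for the range of the 3 lines. Blue points are the 49 members called lower, red points the 10 called higher, and the fall at the low end exceeds the rise at the high end.

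Averaged over the 3 lines, 10 members were higher and 49 lower on polysomes, or 7.14% and 35.0%, where 22.0% and 22.9% of all genes were called, 44.9% in either direction. Without YTHDF3-ADAR replicate 1 of both fractions 21 were higher and 51 lower, with 31.4% and 25.4% of all genes, and with paired libraries 17 and 60, with 28.9% and 28.6% of all genes. Without YTHDF3-ADAR polysome replicate 3 they were 8 and 57, with 22.3% and 23.5%. Without normalization factors the balance turned, to 53 higher and 27 lower, as it did over all genes, of which 51.2% were higher and 10.9% lower. The 10 members that reached 1 CPM in total RNA only were all among the 49, and of the 126 that reached it in both fractions 10 were higher and 39 lower. The fall reached at least 1 log2 unit in 18 members and the rise in none of the called members. Of the 140, 18 were called lower in all 3 lines (12.9%, against 6.56% of all genes) and 0 higher in all 3 (3.70% of all genes). Of these 18, 6 reached 1 CPM in total RNA only. Without normalization factors 13 members, all among those 18, were lower in all 3 lines, and 10 were higher in all 3, where 3.22% of all genes were lower and 21.5% higher in all 3. A further 5 were lower in 2 lines and 11 in 1 line, 102 were called in none, and no member was higher in one line and lower in another. The lines share no libraries, and across the 139 members other than LINC01687 Pearson's r of the change was 0.948 for YTHDF2-ADAR with YTHDF1-ADAR, 0.883 for YTHDF3-ADAR with YTHDF1-ADAR and 0.861 for YTHDF3-ADAR with YTHDF2-ADAR. Members are not independent points, since they share libraries, depth and scaling.

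LINC01588 (chr14:49927571-50105043, minus strand, 29 merged exons) was furthest below its total RNA level. It had 0.479, 0.633 and 0.77 normalised CPM on polysomes of YTHDF1-ADAR cells, against 6.49, 5.19 and 4.9 in total RNA. YTHDF2-ADAR cells had 0.736, 1.0 and 0.954 on polysomes, against 9.22, 3.92 and 8.58 in total RNA. In YTHDF3-ADAR cells the values were 0.853, 0.703 and 1.29 on polysomes, against 4.27, 5.87 and 5.75 in total RNA. Every polysome library was below every total RNA library of its line, and replicate 1 of YTHDF3-ADAR cells lay with the others. Over all lines its polysome mean was 0.941 CPM, so it passed the threshold of 1 through total RNA. The log2 changes were -3.14, -3.0 and -2.48 (SE 0.32, 0.31 and 0.31), with edgeR adjusted p of 9.02e-06, 1.43e-05 and 6.37e-05. Its span overlaps no coding gene, and the nearest is VCPKMT, a lysine methyltransferase gene, 3589 bases away.

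LINC02076 (chr17:18411159-18414380, plus strand, 2 merged exons) shares no exon base with another gene. Its polysome level was 0.363, 0.386 and 0.44 normalised CPM in YTHDF1-ADAR cells, against 3.15, 2.75 and 2.3 in total RNA. The YTHDF2-ADAR libraries held 0.386, 0.396 and 0.37 on polysomes, against 3.35, 2.13 and 3.25 in total RNA, and the YTHDF3-ADAR libraries 0.244, 0.458 and 0.571, against 2.22, 2.14 and 1.97. The fractions did not overlap in any line, and the log2 changes were -2.78, -2.91 and -2.29 (SE 0.26, 0.26 and 0.26, edgeR adjusted p of at most 2.61e-05). Its lowest polysome count in a library was 12. With a mean of 0.459 CPM on polysomes and 2.25 CPM in total RNA it was a member through total RNA alone, and a lower polysome level was in part built into its choice.

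LINC00632 (chrX:140709562-140793215, plus strand, 9 merged exons) was the most abundant of the strongly lower members. It is the host locus of CDR1as, a circular RNA known for its many binding sites for the microRNA miR-7, and CDR1 lies on the opposite strand. Counts per gene do not separate the linear from the circular RNA. Polysome libraries of YTHDF1-ADAR cells had 8.96, 8.1 and 13.6 normalised CPM, against 39.4, 34.2 and 55.5 in total RNA. Those of YTHDF2-ADAR cells had 10.8, 14.6 and 13.5, against 63.3, 73.2 and 73.2 in total RNA. YTHDF3-ADAR replicates 1, 2 and 3 had 6.7, 15.9 and 20.7 on polysomes, against 44.1, 142 and 126 in total RNA. The fractions did not overlap within a line, and replicate 1 of YTHDF3-ADAR cells was lowest of its group in both. The log2 changes were -2.07, -2.43 and -2.85 (SE 0.4, 0.4 and 0.41, edgeR adjusted p = 0.00204, 0.000903 and 0.000252).

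**Figure D3:**
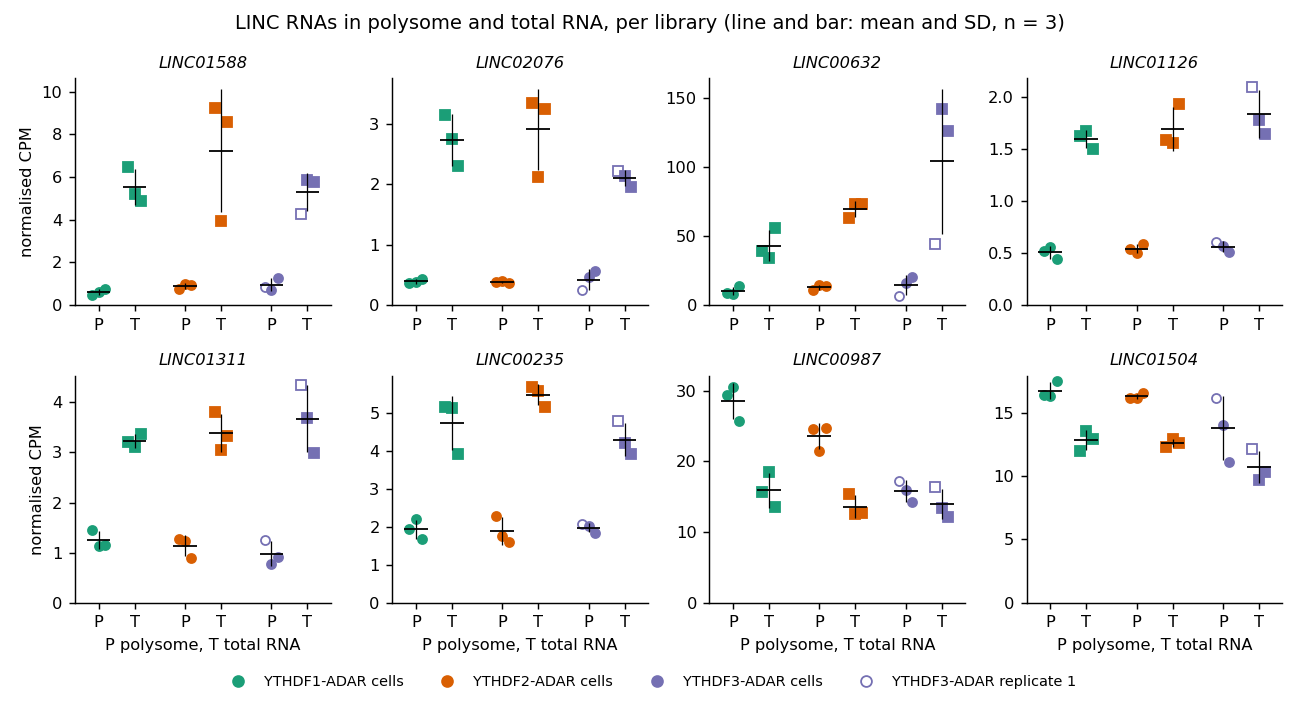
Normalised CPM per library of 6 lower and 2 higher LINC RNAs, with polysome (P, circles) left of total RNA (T, squares) in each line and open symbols for YTHDF3-ADAR replicate 1; lines and bars are mean and SD of n = 3. Polysome points lie below total RNA points in all 3 lines for the first 6 genes, while LINC00987 is above total RNA in YTHDF1-ADAR and YTHDF2-ADAR cells.

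Several lower members are single-exon genes that lie near a coding gene of the other strand. LINC01126 (chr2:43227210-43228855, plus strand) begins 604 bases from the start of ZFP36L2, a gene for an mRNA decay factor that binds AU-rich elements. Its YTHDF1-ADAR libraries held 0.523, 0.556 and 0.44 normalised CPM on polysomes, against 1.62, 1.67 and 1.5 in total RNA. The YTHDF2-ADAR line had 0.543, 0.501 and 0.584 on polysomes, against 1.59, 1.56 and 1.93 in total RNA. With the YTHDF3 fusion the values were 0.609, 0.565 and 0.508 on polysomes, against 2.1, 1.78 and 1.64 in total RNA. All 9 polysome libraries were below all 9 total RNA libraries, and the log2 changes of -1.65, -1.64 and -1.71 differed by less than their SE of 0.18. It too became a member through total RNA, at a mean of 1.52 CPM, against 0.610 CPM on polysomes.

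LINC00235 (chr16:525155-527407, minus strand) starts 305 bases from CAPN15, a calpain family protease gene. YTHDF1-ADAR libraries had 1.93, 2.19 and 1.69 normalised CPM of it on polysomes, against 5.17, 5.12 and 3.91 in total RNA. The YTHDF2-ADAR line had 2.3, 1.75 and 1.6 on polysomes, against 5.69, 5.59 and 5.16 in total RNA. With the YTHDF3 fusion the values were 2.07, 2.02 and 1.84 on polysomes, against 4.78, 4.2 and 3.91 in total RNA. The 9 polysome values were again all below the 9 total RNA values, with log2 changes of -1.29, -1.54 and -1.12. LINC01311 (chr22:19171395-19172839, plus strand, 1 exon) lies 2742 bases from SLC25A1, the gene of the mitochondrial citrate carrier, and was at 1.24 ± 0.18, 1.14 ± 0.212 and 0.981 ± 0.253 normalised CPM on polysomes, against 3.23 ± 0.137, 3.39 ± 0.38 and 3.67 ± 0.671 in total RNA (SD, n = 3 each). Its log2 changes were -1.37, -1.57 and -1.91.

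The other 6 of the 12 lowest members had mean log2 changes from -2.2 to -1.14. LINC01783 fell in each line, by 2.51, 2.45 and 1.63 on the log2 scale. LINC01962, with as few as 4 counts in a polysome library, fell by 2.04 and 3.38 in the YTHDF1-ADAR and YTHDF2-ADAR lines. Its change was -1.05 and not called in the YTHDF3-ADAR line, where polysome libraries held 0.203, 0.932 and 1.16 normalised CPM, with replicate 1 far below the others, against 1.81, 1.74 and 1.28 in total RNA. LINC01970 fell in YTHDF1-ADAR cells (log2 -1.57, edgeR adjusted p = 0.0371) and stood at -1.43 and -0.9 in the other lines. LINC01962, LINC01970 and LINC01783 reached 1 mean CPM in total RNA only, so a lower polysome level was in part built into their choice.

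LINC01002, near the end of chromosome 19, fell by 1.40, 1.27 and 1.17. Near-identical copies of such chromosome-end sequence lie on other chromosomes, and LINC01001, also among the 18, is such a gene, so the assignment of their reads is uncertain. LINC01089 fell by 1.14, 1.36 and 1.19, but 41.7% of its exon bases lie in exons of another gene on its strand and 48.7% in exons on the other strand. LINC02603, which shares 51% of its exon bases with opposite-strand exons, fell by 1.01 and 1.73 in the YTHDF1-ADAR and YTHDF3-ADAR lines and stood at -0.67 in YTHDF2-ADAR cells. All 12 mean changes kept their sign and stayed below an adjusted p of 0.05 when any of the 18 libraries was left out. For LINC01588, LINC02076, LINC01126, LINC01783, LINC01962 and LINC01970, members through total RNA only, the sign was in part built into their choice.

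MicroRNA host genes were found among the lower members and among members not lower. LINC00461, whose span holds the hairpin of MIR9-2, a brain microRNA, fell by 1.04 and 1.12 with the YTHDF1 and the YTHDF3 fusion and stood at -0.67 in the YTHDF2-ADAR line. LINC01138, whose span holds MIR5087, was lower in YTHDF1-ADAR cells (-0.67). LINC00472, which holds MIR30A and MIR30C2, and LINC01618, which holds MIR4449, were not lower in any line.

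The starts of lower and higher members are shown to let their sequence be compared. For 77 members a RefSeq promoter window (GRCh38.p14) gave the first 50 transcribed bases, printed 5′ to 3′ on the transcribed strand with every ATG in capitals. The first 4 members fell on polysomes and the last 4 were higher on the mean of the 3 lines.
LINC02076, chr17:18411159-18411208 (plus strand): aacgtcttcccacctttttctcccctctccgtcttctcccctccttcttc
LINC01126, chr2:43227211-43227260 (plus strand): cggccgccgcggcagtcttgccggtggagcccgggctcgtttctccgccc
LINC00235, chr16:527358-527407 (minus strand): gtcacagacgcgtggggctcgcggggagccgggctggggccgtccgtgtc
LINC01970, chr17:82292765-82292814 (minus strand): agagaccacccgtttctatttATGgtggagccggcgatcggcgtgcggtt
LINC02381, chr12:54126071-54126120 (plus strand): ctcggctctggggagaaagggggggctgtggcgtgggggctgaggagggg
LINC00630, chrX:102769153-102769202 (plus strand): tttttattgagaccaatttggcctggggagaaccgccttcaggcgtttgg
LINC00987, chr12:9240073-9240122 (plus strand): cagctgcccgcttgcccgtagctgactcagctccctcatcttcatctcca
LINC01504, chr9:72305436-72305485 (plus strand): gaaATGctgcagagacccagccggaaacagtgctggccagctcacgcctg
The motif searched was ATG on the transcribed strand only. It was in 8 of 26 windows of lower members (30.8%), in 3 of 8 of higher members (37.5%), in 15 of 43 of members not called (34.9%) and in 40.2% of all 35116 RefSeq windows of that length. The median GC content was 64% in the windows of lower members, 55% in those of higher members and 60.0% over all windows. RefSeq and the count table do not place every start at the same base: for the 8 printed members they differed by 0 to 70 bases. Over all 77 the median distance was 84 bases and the highest 207027, in LINC00571, one of the higher members. Within 100 bases, a limit chosen after seeing the data, lay 40 windows, with an ATG in 4 of 12 of lower members, 1 of 5 of higher members and 5 of 23 of members not called, so that lower members then had the larger share.

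Of the 10 members higher on polysomes, LINC00987 (chr12:9240003-9257960, plus strand, 5 merged exons) rose most. Polysome libraries of YTHDF1-ADAR cells held 29.4, 30.6 and 25.7 normalised CPM, against 15.7, 18.5 and 13.5 in total RNA. In YTHDF2-ADAR cells 24.6, 21.5 and 24.7 stood on polysomes, against 15.4, 12.6 and 12.7 in total RNA, and in YTHDF3-ADAR cells 17.3, 16 and 14.2, against 16.4, 13.3 and 12.2. The fractions were apart in the first 2 of these lines and overlapped in YTHDF3-ADAR cells. The log2 changes were 0.85 ± 0.14 (SE, edgeR adjusted p = 0.000651), 0.8 ± 0.14 (adjusted p = 0.00133) and 0.18 ± 0.14 (adjusted p = 0.408). It shares 20.9% of its exon bases with another gene of its strand and 27.4% with opposite-strand exons.

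LINC01504 was higher in 2 lines, YTHDF1-ADAR and YTHDF3-ADAR, with log2 changes of 0.38 and 0.36 (adjusted p = 0.0346 and 0.0465), and stood at 0.37 in YTHDF2-ADAR cells (adjusted p = 0.0508). LINC02381 was higher by 0.36 and 0.39 in the YTHDF1-ADAR and the YTHDF2-ADAR line, while -0.18 in the YTHDF3-ADAR line was not called. LINC00630 rose in YTHDF1-ADAR cells, by 0.47. The other 6 were called on the mean of the 3 lines only: LINC00571 (0.45), LINC01876 (0.44), LINC00667 (0.38), LINC02035 (0.35), LINC01234 (0.34) and LINC01618 (0.18). The call of LINC01618 was lost in 9 of 18 fits that left out a single library, and that of LINC01876 without YTHDF3-ADAR polysome replicate 3 (adjusted p = 0.051).

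Abundant LINC RNAs were spread across the range of changes. LINC02693, the highest by mean CPM at 83, had 89.2, 92 and 82.3 normalised CPM on polysomes of YTHDF1-ADAR cells, against 102, 88.8 and 90.3 in total RNA. Its YTHDF3-ADAR replicates 1, 2 and 3 had 99, 50.4 and 47 on polysomes, against 99.6, 75.7 and 68.4 in total RNA. Replicate 1 was highest in both fractions there, the mean change of -0.16 was not called, and without replicate 1 of both fractions it was -0.21 (adjusted p = 0.000995).

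LINC02067 differed more between lines. Its polysome and total RNA libraries overlapped in YTHDF1-ADAR cells, at 45.1, 58.4 and 49.2 against 53.4, 56.6 and 52.2 normalised CPM, and in YTHDF2-ADAR cells, at 51, 53 and 47.6 against 58.8, 51.5 and 50.9. In YTHDF3-ADAR cells polysomes held 39.3, 22.8 and 33.7, against 62.1, 63.9 and 66.1 in total RNA. All 3 polysome libraries of that line were below its total RNA libraries, and the log2 change was -1.0 ± 0.15 (SE, adjusted p = 0.000311), against -0.09 and -0.09 in the other lines.

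Of the other abundant members, LINC00205 was lower on the mean of the 3 lines (log2 -0.38, adjusted p = 0.00038) and LINC01106 slightly so (-0.17, adjusted p = 0.027, a call lost in 7 of 18 fits that left out a single library). LINC00649 (0.12), LINC01123 (-0.1) and LINC00641 (0.37) were not called. LINC00641 varied widely between libraries: its YTHDF3-ADAR replicates had 39.9, 13.7 and 14.8 normalised CPM on polysomes, against 36, 7.31 and 11.5 in total RNA, with replicate 1 far above the others in both, and without total RNA replicate 1 the mean change was 0.73 (adjusted p = 0.0242). Without normalization factors LINC02067 and LINC00205 were not called, at -0.03 and -0.0049, and the mean changes of LINC02693, LINC01123 and LINC01106 turned to 0.20, 0.27 and 0.20.

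LINC RNAs reported to encode small peptides were a listed group, of which 4 were members and 1, LINC00689, was tested below the member threshold. None of these 5 was called in any line. LINC01234 had log2 changes of 0.45, 0.34 and 0.23, LINC00511 of 0.22, 0.33 and 0.11, LINC00467 of 0.12, 0.01 and -0.08, and LINC00665 of -0.08, -0.01 and -0.18. On the mean of the 3 lines LINC01234 was higher (0.34, adjusted p = 0.00746) and the other 4 were not called. A further 7 of the 13 listed symbols had no row under that symbol, and 1 did not pass the expression filter. Rows under other symbols of those 7 genes were not looked up, so their RNAs may be present and were not assessed. The values above cover only genes that still carry a LINC symbol.

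For scale, 10 nuclear and 9 cytoplasmic lncRNAs of other naming were listed too. Of the nuclear ones 3 fell in each line, TERC, the telomerase RNA, MALAT1, a nuclear speckle RNA, and PVT1, with PVT1 at -0.68, -0.57 and -0.82. Of the cytoplasmic ones 2, 2 and 4 fell, H19 and SNHG5 in all 3 lines and GAS5 and EPB41L4A-AS1 in YTHDF3-ADAR cells. NORAD, a cytoplasmic lncRNA that binds PUMILIO proteins, stood at -0.36, -0.57 and -0.55 with no call. Among 27 mRNAs of RNA export and nuclear exosome factors, which handle lncRNAs in the nucleus, 6 rose in each line and 1, 0 and 0 fell, and among 10 of nonsense-mediated decay, which degrades RNAs with short reading frames, 0 rose and 2, 1 and 2 fell. Of the 13521 protein-coding genes with a mean CPM of at least 1, 16.1%, 12.1% and 14.3% were called higher in the 3 lines. The shares called lower were 7.093%, 4.512% and 8.002%. Of all genes tested, lncRNAs included, 9.26%, 6.71% and 8.01% were called higher and 11.9%, 9.04% and 12.1% lower. Whether any list differed from these shares was not tested. The lists were chosen with earlier results known and are given as counts only.

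Exon structure was set beside the change, since the rule did not use it. Of 17 single-exon members 8 were lower on the mean of the 3 lines (47.1%, median log2 -0.48), and of 123 with more exons 41 were (33.3%, median -0.14). Among other lncRNAs of the same mean CPM 181 of 517 single-exon genes (35.0%) and 449 of 1756 with more exons (25.6%) were lower. Among antisense lncRNAs of that level the shares lay close together, with 10 of 43 (23.3%) and 133 of 587 (22.7%). Members whose start lies within 1000 bases of a coding start on the opposite strand numbered 18, of which 9 were lower (50.0%). Of 119 with no coding start within 1000 bases 38 were lower (31.9%), and of 3 with one on the same strand 2 were. Among the 9 were LINC01126 and LINC01715, members through total RNA only. Members with a span clear of coding genes were lower in 39 of 102 cases, and those that overlap one in 10 of 38. Across 139 members the mean change had a Spearman's rho of 0.160 with exon length and 0.165 with the number of merged exons. With mean CPM the rho was 0.298, but the rule cut on mean CPM. The 10 members that reached 1 CPM in total RNA only were all lower, so that value was in part built into the choice. All 3 values describe members that share libraries. These classes overlap, and no difference between them was tested.

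The change on polysomes was also compared between lines. By edgeR 0 members differed in any of the 3 comparisons, as 0.0% of all genes did, and DESeq2 called 0 too. At an unadjusted p under 0.05 the numbers were 1, 5 and 5 of 140 for YTHDF2-ADAR minus YTHDF1-ADAR, YTHDF3-ADAR minus YTHDF1-ADAR and YTHDF3-ADAR minus YTHDF2-ADAR. Without YTHDF3-ADAR replicate 1 of both fractions, LINC02067 differed by -1.07 ± 0.19 (log2, SE, edgeR adjusted p = 0.00997) from YTHDF1-ADAR cells and by -1.06 ± 0.19 (adjusted p = 0.0101) from YTHDF2-ADAR cells. LINC02381 then differed by -0.63 and -0.65 from the same lines, and LINC01962 by 2.89 ± 0.39 from YTHDF2-ADAR cells. The share of all genes called for the difference in that fit is not given. These calls therefore cannot be read as particular to LINC RNAs. With replicate 1 the differences of LINC02067 were -0.92 and -0.92, with an adjusted p of 1.0.

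Levels of LINC RNAs differed between lines within a fraction. In total RNA 0 members were higher and 5 lower in YTHDF2-ADAR than in YTHDF1-ADAR cells, 3.57% of the members, where 0.545% and 1.28% of all genes were called in those directions and 1.83% in either. Polysome RNA of the same lines differed in 6 members, 1 higher and 5 lower (4.29%, against 0.761% and 1.59% of all genes by direction and 2.35% in either), and the 5 lower ones were the same genes in both fractions. These were LINC01687, LINC01694, LINC01605 (row ENSG00000253414), LINC01234 and LINC02381, and the higher one on polysomes was LINC00839. Leaving out any single library of the groups gave 3 calls in total RNA and 3 or 4 on polysomes. In a bulk sample, fewer cells with an RNA and less of it per cell cannot be told apart.

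LINC01687 (chr21:22008756-22098518, minus strand), 465427 bases from the nearest coding gene, NCAM2, was at or near 0 counts in YTHDF2-ADAR cells. Its counts were 0 in each of the 3 total RNA libraries and 3 in all over the 3 polysome libraries of that line. YTHDF1-ADAR cells had 0.973, 0.648 and 1.43 normalised CPM on polysomes and 0.481, 0.901 and 0.8 in total RNA, and YTHDF3-ADAR cells 1.4, 3.01 and 2.86 and 1.77, 2.27 and 2.81. Set against the limit that 0 counts allow, 3 counts over the 3 libraries, total RNA of YTHDF1-ADAR cells was at least 31.98-fold higher and that of YTHDF3-ADAR cells at least 96.96-fold higher than total RNA of YTHDF2-ADAR cells. No fold between fractions is given for YTHDF2-ADAR cells, since both are at or under that limit. These limits cover counting error only.

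LINC01694 had 1.38, 1.36 and 1.05 normalised CPM on polysomes and 2.1, 1.82 and 2.24 in total RNA of YTHDF2-ADAR cells. YTHDF1-ADAR cells had 6.36, 6.13 and 5.92 and 9.65, 9.06 and 8.71. All YTHDF2-ADAR libraries were below all YTHDF1-ADAR libraries, and the log2 difference was -2.27 on polysomes (adjusted p = 0.00156) and -2.16 in total RNA (adjusted p = 0.00297). LINC01234 lay at 1.88 ± 0.125 and 1.49 ± 0.0455 normalised CPM in polysome and total RNA of the YTHDF2-ADAR line, against 3.89 ± 0.133 and 2.86 ± 0.221 in YTHDF1-ADAR cells (SD, n = 3 each). LINC02381 was lower by a smaller step, -0.46 on polysomes and -0.49 in total RNA (log2).

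**Figure D4:**
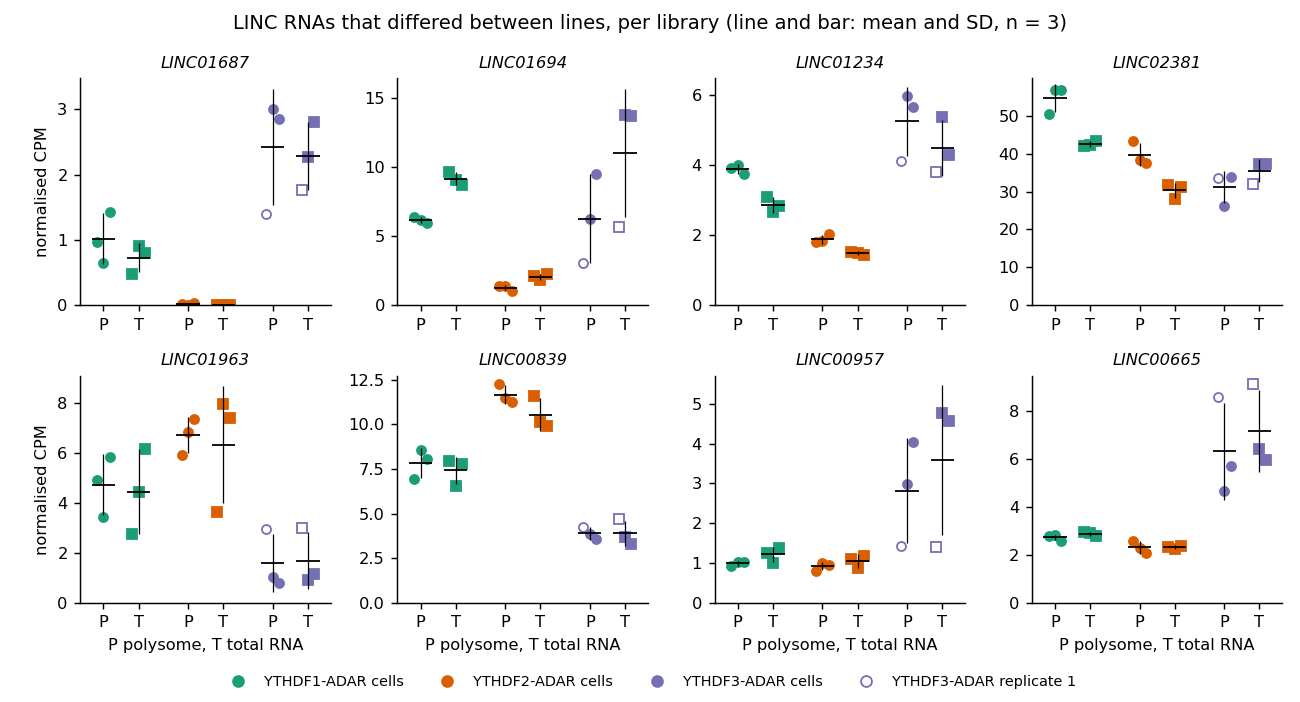
Normalised CPM per library of 8 LINC RNAs whose level differed between lines, with polysome (P, circles) left of total RNA (T, squares) in each line and open symbols for YTHDF3-ADAR replicate 1; lines and bars are mean and SD of n = 3. The first 4 genes are lower in YTHDF2-ADAR than in YTHDF1-ADAR cells, and in the other 4 the YTHDF3-ADAR cells stand apart, with replicate 1 nearer to the other lines for LINC01963 and LINC00957.

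YTHDF3-ADAR cells differed more from both other lines, and the share of LINC RNAs called lay near that of all genes in 3 of the 4 comparisons. Against YTHDF1-ADAR cells 25 members were called in total RNA, 19 higher and 6 lower (17.9%, against 11.6% and 6.52% of all genes by direction and 18.1% in either), and 32 on polysomes, 22 higher and 10 lower (22.9%, against 11.9% and 11.4% by direction and 23.3% in either). Against YTHDF2-ADAR cells 32 were called in total RNA, 25 higher and 7 lower (22.9%, against 15.2% and 7.57% by direction and 22.8% in either), and 43 on polysomes, 28 higher and 15 lower (30.7%, against 13.6% and 11.5% by direction and 25.1% in either). Without replicate 1 of both fractions the calls were 68 and 79 against YTHDF1-ADAR cells and 74 and 81 against YTHDF2-ADAR cells, in total RNA and on polysomes, with 46.8 to 50.9% of all genes called. Every reported call was among them. Without replicate 1 of the compared fraction alone they were 48 and 73, and 62 and 71. Leaving out replicate 2 or 3 of the YTHDF3-ADAR line gave 6 and 7 calls in total RNA and 11 and 13 on polysomes against YTHDF1-ADAR cells, and 13 and 14, and 22 and 24, against YTHDF2-ADAR cells. Without single YTHDF1-ADAR libraries the calls were 9 to 11 in total RNA and 11 to 15 on polysomes, and without YTHDF2-ADAR total RNA replicate 2 or 3 they were 16 and 17 and without polysome replicate 1 or 2 they were 28 and 23. The 3 comparisons of a fraction share libraries. Of the calls against YTHDF1-ADAR cells, 15 were shared by both fractions in the same direction, 60.0% of those in total RNA and 46.9% of those on polysomes, and against YTHDF2-ADAR cells 28, or 87.5% and 65.1%. Fits of the compared libraries alone called 1 and 7 members against YTHDF1-ADAR cells and 9 and 16 against YTHDF2-ADAR cells. For these fits, and for those without a single library, the share of all genes called is not given. Their counts therefore cannot be read as particular to LINC RNAs.

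LINC00839 was lowest in YTHDF3-ADAR cells, replicate 1 included. It had 4.27, 3.85 and 3.55 normalised CPM on polysomes and 4.69, 3.69 and 3.28 in total RNA of that line. YTHDF2-ADAR cells had 12.3, 11.5 and 11.2 and 11.6, 10.1 and 9.92, and YTHDF1-ADAR cells 6.92, 8.55 and 8.03 and 7.96, 6.53 and 7.76. The 3 lines did not overlap in either fraction, and the log2 difference of YTHDF3-ADAR from YTHDF1-ADAR cells was -1.01 on polysomes and -0.93 in total RNA (adjusted p = 0.000247 and 0.000731).

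LINC00665 (chr19:36259540-36331770, minus strand) was the reverse. YTHDF3-ADAR cells had 8.57, 4.66 and 5.71 normalised CPM on polysomes and 9.1, 6.43 and 5.94 in total RNA. YTHDF1-ADAR cells stood at 2.77, 2.81 and 2.58 and 2.94, 2.9 and 2.77. All YTHDF3-ADAR libraries were above all YTHDF1-ADAR libraries, with replicate 1 highest, and the log2 difference was 1.21 on polysomes and 1.32 in total RNA (adjusted p = 0.000902 and 0.000735).

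For other members replicate 1 lay with the other lines. LINC00957 had 1.42, 3.0 and 4.05 normalised CPM on polysomes and 1.4, 4.78 and 4.56 in total RNA of YTHDF3-ADAR replicates 1, 2 and 3, against 0.915, 1.02 and 1.03 and 1.26, 1.01 and 1.38 in YTHDF1-ADAR cells. LINC00294 had 20.5, 36.6 and 42.1 and 19.6, 44.7 and 44.6 in the same replicates, against 17.9, 18.6 and 20.8 and 19, 17.5 and 20.5 in YTHDF1-ADAR cells. LINC01963, a single-exon gene, went the other way, at 2.94, 1.02 and 0.809 and 2.99, 0.921 and 1.15 in YTHDF3-ADAR cells, against 5.94, 6.83 and 7.38 and 3.65, 7.97 and 7.4 in YTHDF2-ADAR cells. In these 3 genes replicates 2 and 3 of YTHDF3-ADAR cells were away from the compared line and replicate 1 close to it or between.

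The remaining members at the ends of the YTHDF3-ADAR comparisons are given by their log2 differences. Against YTHDF1-ADAR cells in total RNA the highest were LINC01687 (1.63), LINC01315 (1.43), LINC02253 (1.39) and LINC00632 (1.27), and the lowest LINC01619 (-1.03), LINC01783 (-0.79), LINC01291 (-0.74), LINC00847 (-0.61) and LINC01500 (-0.53). On polysomes LINC01970 (1.75), LINC02614 (1.22) and LINC00910 (1.2) were high, and LINC01619 (-1.35), LINC02603 (-0.95), LINC01291 (-0.9) and LINC00987 (-0.85) low. Against YTHDF2-ADAR cells LINC01694 was higher by 2.42 in total RNA and 2.3 on polysomes, and the LINC01605 row ENSG00000253414 by 1.66 in total RNA. LINC00342 (-1.26) and LINC00852 (-0.63) were among the lowest in total RNA, and LINC01176 (-1.17) and LINC01465 (-1.06) on polysomes, where LINC01962 was higher by 2.18.

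The authors' deposited tables of editing list genes at which the fused deaminase changed adenosines. They hold 6858, 4547 and 7042 genes for the fusions of YTHDF1, YTHDF2 and YTHDF3, of which 6858, 4546 and 7041 are protein coding. None of the 140 LINC RNAs is listed in any of them. Since the tables hold almost no noncoding gene of any kind, this says nothing about whether YTHDF proteins met LINC RNAs, and no editing value is given for them.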

How the data were processed

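Gene counts of 18 libraries were used as deposited. The authors aligned reads with STAR 2.7.7 and counted them per gene with featureCounts 2.0.1 on GRCh38 (hg38), per the submitters' processing notes, and the library kit was directional, with ribosomal RNA removed first, per the labels' protocols. For the annotation release and the strand setting of the counting, the sources used here give nothing. The deposited comparison table, from which only the biotype and symbol of each gene were taken, holds a mean signal of normalized counts, log2 fold changes, a statistic score and p-values by DESeq2, per the file headers. Deposited editing tables hold an editing score per gene, an adjusted p-value and a column that equals a natural log odds ratio of the authors' scores; their gene names only were used. 1 non-human row, with 0 to 8 counts a library, was left out.

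Counts were fitted with edgeR 4.0.16 (quasi-likelihood, robust, R 4.3.3) over all 6 groups after filterByExpr (minimum count 10) and TMM scaling, which left 26804 genes, and p-values were adjusted after Benjamini and Hochberg over all of them (threshold 0.05). The SE of a log2 change is its size divided by the root of F. Normalised CPM is the count at a TMM-scaled library total of 1000000. The mean of the 3 lines is a contrast of the same fit. Named members are up to 12 called in each direction on that mean, the 10 of highest mean CPM, up to 6 called in each direction per contrast between lines, those nearest the threshold and those of the fixed lists; single-exon members, microRNA hosts and LINC00294 were added after their values were seen. The members and lists were chosen with earlier results of these data known. Alternatives were DESeq2 1.42.0, its size factors, no factors, no filter, fits of the compared libraries only, a replicate block, each library left out and, chosen after seeing the data, YTHDF3-ADAR replicate 1 left out of both fractions and members with no shared exon base. Within a line, polysome and total RNA libraries of the same number deviated together from their group means. Their correlations were 0.209 to 0.661 over all 9 pairs. Of the 9 polysome libraries, 6 correlated most with the total RNA library of their own number, so the pairing is not certain. Within lines, numbers were taken as pairs in the replicate block only. The fit was tested on simulated data. Tables and plots were made with Python 3.11.15, pandas 2.3.3 and matplotlib 3.10.9. Of the gene IDs, 93 had no symbol in the name table. Starts and first bases are RefSeq, GRCh38.p14. Count depth limits the precision of members near 1 CPM. Beyond the markers given, a further listed marker of another cell type is not reported here.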

Additional observations from a re-analysis of the deposited data

How the results depend on the processing

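Counts of called members are given here as higher and lower on polysomes, in the order of the YTHDF1-ADAR, YTHDF2-ADAR and YTHDF3-ADAR lines. Without normalization factors 40, 24 and 12 were higher, 15, 15 and 20 lower, 53 higher and 27 lower on the mean of the 3 lines, and 3 and 42 differed in total RNA of YTHDF2-ADAR and YTHDF3-ADAR against YTHDF1-ADAR cells. This setting moved the median of all genes too. With the replicate block (pairs within a line) 9 and 4 were higher in the first pair of lines, 38 and 47 were lower in the other pair, and 17 were higher on the mean of the 3 lines and 1 in all 3; the block moved no other count of calls by over 1.5 times. Without the filter on low counts 1 was higher in YTHDF2-ADAR cells and 13 differed in total RNA of YTHDF3-ADAR against YTHDF1-ADAR cells. DESeq2 called 2 higher in YTHDF3-ADAR cells. Fits of the compared libraries only gave 4 higher and 38 lower in YTHDF2-ADAR cells and 0 higher and 4 lower in YTHDF3-ADAR cells; they gave 14 between YTHDF2-ADAR and YTHDF1-ADAR polysomes, 1 and 7 in total and polysome RNA of YTHDF3-ADAR against YTHDF1-ADAR, and 9 and 16 against YTHDF2-ADAR. Members with no shared exon base gave 0, 0 and 0 higher and 12, 10 and 14 lower, of 64. Without YTHDF3-ADAR replicate 1 of both fractions 9 were higher in that line. The change on polysomes then differed in 2 and 3 members from YTHDF1-ADAR and YTHDF2-ADAR, with no share of all genes given. Levels differed in 68 and 79 (total and polysome RNA) from YTHDF1-ADAR and in 74 and 81 from YTHDF2-ADAR. Relative to protein-coding counts the summed share had polysome over total ratios of 0.888, 0.839 and 0.779. Without factors LINC02693, LINC01123 and LINC01106 had mean changes of 0.20, 0.27 and 0.20. The cause was not tested for any of these.

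With single libraries left out, higher members ranged from 1 to 3, 1 to 2 and 0 to 3 and lower ones from 18 to 21, 15 to 19 and 20 to 39. Differences of the change ranged from 0 to 0 (YTHDF2-ADAR minus YTHDF1-ADAR), 0 to 1 and 0 to 2. Levels called in total RNA ranged from 3 to 3, 6 to 48 and 13 to 62, and on polysomes from 3 to 4, 11 to 73 and 22 to 71, for YTHDF2-ADAR against YTHDF1-ADAR, YTHDF3-ADAR against YTHDF1-ADAR and YTHDF3-ADAR against YTHDF2-ADAR. For the mean changes of single named members, 667 of their values under alternatives kept direction and side of the threshold, 20 lost the call, 6 gained it and 3 turned. Across lines same-numbered libraries correlated at -0.375 to 0.491, above 0.1 in 4 of 18 pairs, and are not taken as pairs.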
